A study of Mus musculus with 46 samples.

Results

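Car12, Hpdl, Nr1h5, Lingo3, Camkv and Ccnb1ip1 are 6 of the 21671 genes of an RNA sequencing table of mouse liver and liver tumours. They were picked by name as genes near absent in control liver, high in tumours driven by Myc and sharply lower 16 hours after the Myc transgene was switched off. Their levels in those groups chose them, so these are given as a description without a test, while tumours with a mutant Myc played no part in the choice. One of the 6 departs from the description: Nr1h5 was present in every control liver, at 1.86 to 4.43 eRPKM. Only 1 time after switch-off was sampled, so the data show how far each transcript had gone down by 16 hours and hold no rate.

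All mice were of the FVB strain, and the sources used here do not give ages. Control livers (11 libraries from 11 animal IDs) carry the label control liver, with no further allele named. Myc tumours (16 libraries, 7 IDs) carried tet-Myc and LAPtTA with the transgene on. Myc-off tumours (8 libraries, 3 IDs) had the same alleles and received doxycycline in the food for 16 hours. MycVD tumours (11 libraries, 10 IDs) carried tet-MycVD and LAPtTA with the transgene on. LAPtTA is a liver-specific transactivator, so the transgene was aimed at liver cells. The time from which it acted and the cell types in which it acted were not measured here. The V394D substitution of MycVD impairs contact between Myc and its partner protein Miz1.

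As background, Myc is a transcription factor that binds DNA with its partner Max at E-boxes, of which CACGTG is the classical form, and it raises genes of growth and division. Liver tumours driven by such a transgene depend on it, and doxycycline stops its transcription. The 6 genes have unlike roles. Car12 encodes carbonic anhydrase 12, an enzyme of the cell surface that turns carbon dioxide and water into bicarbonate and acid. Hpdl encodes a mitochondrial relative of the tyrosine-degrading enzyme Hpd and takes part in making the head group of coenzyme Q. Nr1h5 encodes the nuclear receptor FXR beta, a relative of the bile acid receptor Nr1h4, and is known to bind lanosterol. Lingo3 encodes a membrane protein with leucine-rich repeats from a family studied in neurons. Camkv encodes a pseudokinase of synaptic vesicles related to the calmodulin-dependent kinases. Ccnb1ip1 encodes the ubiquitin ligase HEI10, needed for crossovers in meiosis.

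The promoters are shown because the 6 transcripts went up and down together. All 6 genes matched the RefSeq promoter table of build GRCm38.p6, and each window runs from 250 bases before to 50 bases after an annotated start. Sequences are 5′ to 3′ on the strand of the gene, and capitals mark CACGTG, searched on both strands (its own reverse complement), and CACGCG, searched as CACGCG and CGCGTG. The windows are chr9:66713436-66713735 (plus strand) for Car12, chr4:116821459-116821758 (minus) for Hpdl, chr3:102964084-102964383 (minus) for Nr1h5, chr10:80843990-80844289 (minus) for Lingo3, chr9:107935670-107935969 (plus) for Camkv and chr14:50795679-50795978 (minus) for Ccnb1ip1.
Car12: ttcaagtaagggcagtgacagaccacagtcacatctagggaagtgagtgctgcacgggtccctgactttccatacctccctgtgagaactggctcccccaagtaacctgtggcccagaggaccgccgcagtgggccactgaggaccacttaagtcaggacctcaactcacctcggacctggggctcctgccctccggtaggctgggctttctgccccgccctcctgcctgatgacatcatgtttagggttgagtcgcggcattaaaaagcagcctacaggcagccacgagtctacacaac
Hpdl: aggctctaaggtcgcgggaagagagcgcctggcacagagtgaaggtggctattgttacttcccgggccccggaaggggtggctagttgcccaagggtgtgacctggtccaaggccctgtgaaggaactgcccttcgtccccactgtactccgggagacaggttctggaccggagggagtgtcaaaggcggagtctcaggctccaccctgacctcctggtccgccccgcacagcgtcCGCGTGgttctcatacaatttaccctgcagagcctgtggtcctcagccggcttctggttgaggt
Nr1h5: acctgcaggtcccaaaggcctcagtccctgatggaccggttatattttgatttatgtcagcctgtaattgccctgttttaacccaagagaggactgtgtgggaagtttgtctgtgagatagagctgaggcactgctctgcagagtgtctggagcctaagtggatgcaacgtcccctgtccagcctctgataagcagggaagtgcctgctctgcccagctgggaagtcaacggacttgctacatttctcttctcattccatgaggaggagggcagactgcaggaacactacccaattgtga
Lingo3: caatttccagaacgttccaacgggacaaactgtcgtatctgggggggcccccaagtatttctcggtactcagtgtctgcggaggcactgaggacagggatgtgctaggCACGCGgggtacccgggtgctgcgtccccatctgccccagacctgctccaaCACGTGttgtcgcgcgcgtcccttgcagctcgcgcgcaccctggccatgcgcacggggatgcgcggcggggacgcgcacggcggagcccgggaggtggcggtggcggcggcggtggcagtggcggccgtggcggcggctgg
Camkv: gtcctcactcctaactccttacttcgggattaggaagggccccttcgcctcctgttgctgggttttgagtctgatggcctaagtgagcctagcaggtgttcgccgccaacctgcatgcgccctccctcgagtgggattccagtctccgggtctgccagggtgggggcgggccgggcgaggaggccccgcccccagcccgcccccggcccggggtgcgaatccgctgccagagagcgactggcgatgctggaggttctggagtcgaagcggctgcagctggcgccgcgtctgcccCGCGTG
Ccnb1ip1: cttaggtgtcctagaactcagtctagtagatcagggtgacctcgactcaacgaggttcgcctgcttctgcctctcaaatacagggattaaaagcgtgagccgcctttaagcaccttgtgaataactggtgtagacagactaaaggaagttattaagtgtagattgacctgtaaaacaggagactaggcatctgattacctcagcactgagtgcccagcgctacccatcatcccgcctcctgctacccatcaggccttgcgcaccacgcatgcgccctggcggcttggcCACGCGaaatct

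CACGTG occurred once among these windows, in Lingo3, with its first base 91 bases before the start, while 7.15% of all 32851 promoters of the table hold it. CACGCG occurred in 4 of the 6 genes, against 9.27% of all promoters. Its first base lay 14 bases before the start in Hpdl, 142 before in Lingo3, at base 45 after the start in Camkv and at base 39 after in Ccnb1ip1. A second annotated start of Lingo3 also has a CACGCG, 101 bases before it. These 4 genes have windows rich in CpG, from 13 in Ccnb1ip1 and 15 in Hpdl to 25 in Camkv and 35 in Lingo3, where the median promoter has 7. Among the 12454 promoters with at least 13 CpG, a cut-off set at the lowest count of these 4 genes, 22.0% hold CACGCG. Car12 (9 CpG, 58.3% GC) and Nr1h5 (3 CpG, 51.7% GC) have neither sequence in the window, and the median promoter has a GC content of 52.7%. A match describes the letters only, and binding was not measured here.

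Whole reads recovered from the steps of the eRPKM values gave a depth of 3.20 to 12.55 M reads per library, with medians of 7.25 M in control liver, 9.58 M in Myc tumours, 7.06 M in Myc-off tumours and 7.74 M in MycVD tumours. In 8 libraries (1 control, 5 Myc, 2 MycVD) Gapdh was at 14.96 to 27.1 eRPKM, apart from the rest at 35.2 or more, and values without them are given below. All Myc-off IDs are numbered above the other groups, and all MycVD IDs above the Myc IDs. Control IDs lie among the Myc IDs and on both sides of the MycVD IDs, but none lies among the MycVD IDs. No batch is named in the labels, so anything that followed the numbering cannot be told apart from the group in MycVD against Myc and in Myc-off against the rest. The same holds in MycVD against control for anything limited to the MycVD block of numbers. The Myc row of the table stood at 7.75 ± 1.69 eRPKM in Myc tumours (SD, n = 7 IDs), 5.98 ± 2.72 in Myc-off tumours (n = 3) and 6.35 ± 5.10 in control liver (n = 11). Whether this row counts transgene reads is not stated, so it does not check the labels. In whole tissue, fewer cells of a type and less RNA per cell cannot be told apart.

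Car12, the bicarbonate-forming enzyme, was nearly silent in control liver, with a lowest, median and highest library of 0, 0.0784 and 0.384 eRPKM (0 to 12 reads). In Myc tumours the same 3 values were 33.7, 39.0 and 44.6 eRPKM, from 1204 to 2202 reads per library. The 16 tumours were thus close to one another and far from every control. Animal means were 39.1 ± 2.64 eRPKM (SD, n = 7) against 0.104 ± 0.107 (n = 11), a difference of 6.05 ± 0.11 (SE) in log2(eRPKM + 0.5), the scale of all log2 differences here. After 16 hours of doxycycline the 3 animals averaged 0.466, 0.315 and 0.258 eRPKM, or 1.19%, 0.806% and 0.660% of the Myc tumour mean. Single Myc-off tumours ran from 0 to 0.767 eRPKM and overlapped the controls.

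Hpdl, the coenzyme Q enzyme gene, stood at 0.103, 0.313 and 0.776 eRPKM (lowest, median, highest) in control liver, which is 1 to 10 reads. Myc tumours had 30.4, 39.3 and 53.4 eRPKM. Groups did not overlap, and the difference was 5.50 ± 0.17. Myc-off animals averaged 0.253, 0 and 0.326 eRPKM. No read was found in both tumours of ID151964, where 3 reads would equal between 0.181 and 0.576 eRPKM over the Myc-off libraries. Hpdl thus had returned to the control range or under it, with 21 reads over all 8 Myc-off libraries.

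The lanosterol-binding receptor gene Nr1h5 had the highest tumour level of the 6. Its libraries lay at 50.8, 58.9 and 74.3 eRPKM in Myc tumours and at 1.86, 3.51 and 4.43 in control liver. Because the control level is not near 0, its difference, 4.09 ± 0.13, was the smallest of the 6 although its tumour level was the highest. Myc-off animals averaged 1.59, 1.84 and 2.67 eRPKM, and 2 of 3 lay under every control. On average Nr1h5 after switch-off stood at -0.57 ± 0.18 relative to control liver.

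The membrane protein gene Lingo3 had no read in 7 of 11 control livers and at most 4 in the others. Myc tumours had 12.01, 16.3 and 23.5 eRPKM (341 to 949 reads), a difference of 5.11 ± 0.18. Myc-off animals averaged 0.448, 0.184 and 0.0978 eRPKM, and 2 of 3 lay above the highest control (0.159). In Myc-off libraries 3 reads would equal 0.0841 to 0.269 eRPKM, so the middle animal was within a few reads of that control. Even the highest Myc-off animal kept 2.50% of the tumour mean.

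Camkv, the vesicle pseudokinase gene, was likewise close to 0 in control liver, where 4 of 11 libraries had no read and none had more than 3. Myc tumours had 9.55, 13.9 and 21.0 eRPKM, a difference of 4.81 ± 0.34. Myc-off animals differed among themselves. ID150584 kept 0.906 eRPKM (6.06% of the tumour mean), with its 3 tumours between 0.843 and 0.995, while ID151964 kept 0.249 and ID153344 kept 0.0437. The last of these lay within the control range.

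Ccnb1ip1, the crossover gene, had no read in 6 of 11 control livers and at most 0.997 eRPKM in the others. Myc tumours had 35.7, 52.9 and 59.4 eRPKM, and the difference of 6.34 ± 0.23 was the largest of the 6. Of the 6 it also kept the largest mean level and the largest mean share of its tumour level after switch-off, 5.81%. Myc-off animals averaged 5.41, 0.932 and 2.67 eRPKM, which is 10.5%, 1.80% and 5.17% of the tumour mean. Relative to control liver it stood at 2.22 ± 0.31 higher, with 2 of 3 animals above every control. In control liver 1 animal, ID128994, was the highest for Car12, Lingo3 and Ccnb1ip1.

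**Figure D1:**
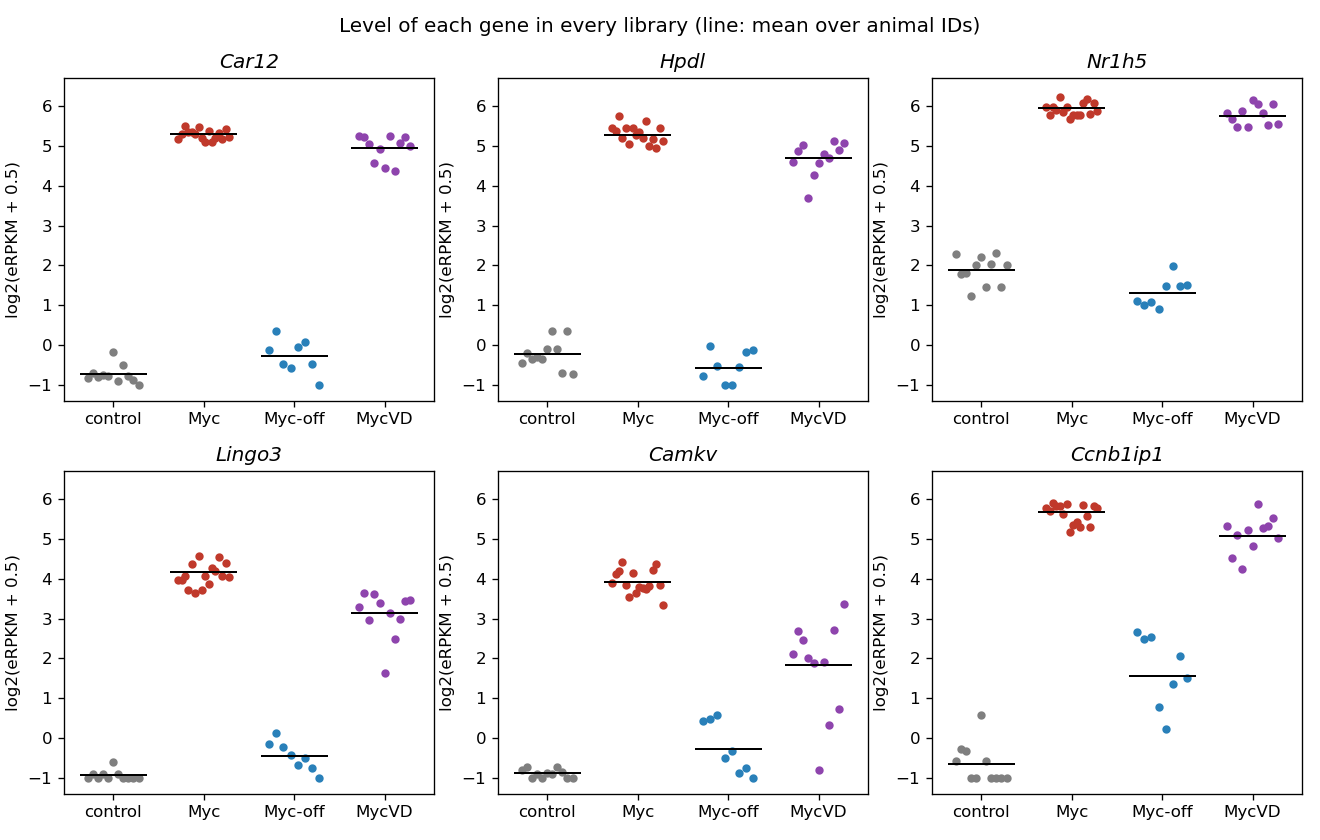
Each panel shows 1 gene, with log2(eRPKM + 0.5) on the vertical axis, 1 point per library (11 control, 16 Myc, 8 Myc-off, 11 MycVD) and a line at the mean over animal IDs. Control and Myc-off points lie far under the Myc tumours in every panel. Control Nr1h5 lies at 1.86 to 4.43 eRPKM, and Ccnb1ip1 in Myc-off tumours stays above the mean of control liver.

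Per length, the order of levels in Myc tumours was Nr1h5 (62.2 ± 4.57 eRPKM), Ccnb1ip1 (51.7 ± 7.45), Car12 (39.1 ± 2.64), Hpdl (38.5 ± 4.78), Lingo3 (17.9 ± 2.96) and Camkv (14.95 ± 2.94, SD, n = 7 animals each). The animal ranges of neighbours in this order overlapped, except that Hpdl (31.3 to 43.4) lay above Lingo3 (14.9 to 23.5) without overlap. Car12 was the most even transcript across Myc animals, with a coefficient of variation of 6.76%, and Camkv the least, with 19.6%. The SD of single tumours within animals exceeded the SD of animal means for 4 genes and was smaller for Camkv and Ccnb1ip1. For Car12 the SD in log2 units was 0.12 within animals (14 tumours of 5 IDs) and 0.10 between animal means (n = 7 IDs). For Lingo3 these were 0.27 and 0.23, and for Ccnb1ip1 0.12 and 0.22. Many animal means average several tumours, so the SDs within and between are not like measures, here and after switch-off. After switch-off the SD between animals exceeded that within them for 5 of the 6 genes (8 tumours of 3 IDs), by most for Camkv (0.11 within and 0.70 between) and Ccnb1ip1 (0.30 and 1.04). Car12 was the exception, with 0.46 within and 0.19 between.

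**Figure D2:**
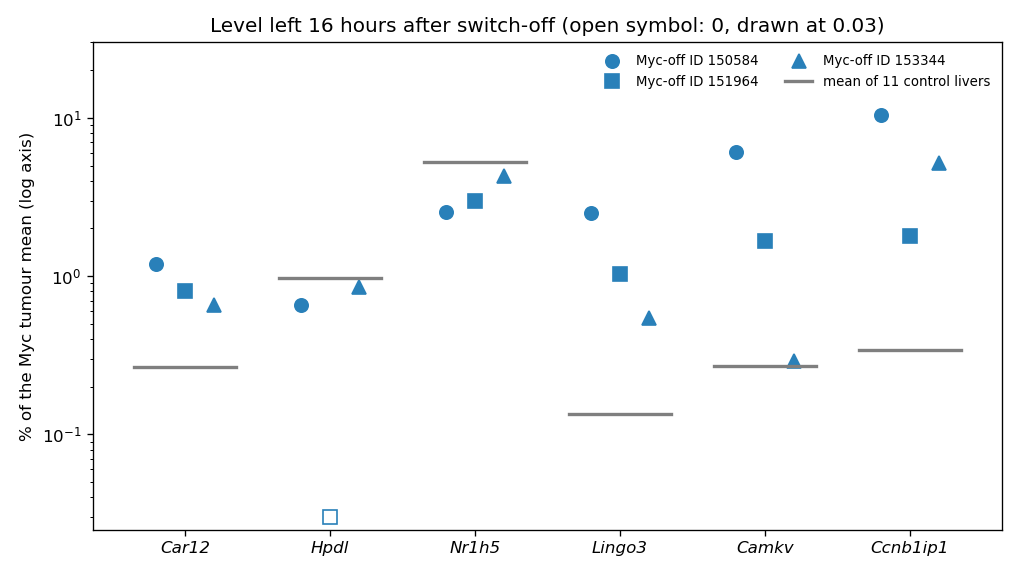
The level left after 16 hours is drawn on a log axis as a percentage of the mean of 7 Myc tumour animals, with 1 symbol per Myc-off animal and a grey line for the mean of 11 control livers. Hpdl and Nr1h5 lie at or under the grey line, and Ccnb1ip1 keeps 1.80% to 10.5%.

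Among the 14566 genes that reached 1 eRPKM in 3 or more IDs, the 6 had the 6 lowest differences between Myc-off and Myc tumours, by which they had been picked: Hpdl at -5.84 ± 0.24 (SE), Car12 at -5.59 ± 0.16, Nr1h5 at -4.66 ± 0.19, Lingo3 at -4.64 ± 0.26, Camkv at -4.19 ± 0.48 and Ccnb1ip1 at -4.13 ± 0.33. In that comparison 28.2% of all genes were called lower and 22.2% higher, and between Myc tumours and control liver 50.0% were called higher and 29.9% lower, which describes the background of the choice. The sizes depend on the pseudocount where Myc-off values are a few reads: with 0.1 in place of 0.5 Hpdl stood at -7.34 and Car12 at -6.68. Nr1h5 and Ccnb1ip1, which keep more reads, moved less, to -4.92 and -4.38. Without the 8 libraries of low Gapdh the 6 ran from -5.91 (Hpdl) to -4.17 (Ccnb1ip1) in this comparison, and from 4.09 (Nr1h5) to 6.35 (Ccnb1ip1) between Myc tumours and control liver.

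Other genes were as low in liver and high in tumours. Of 277 genes with a mean under 0.5 eRPKM in control liver and at least 5 in Myc tumours, 5 are among the 6 (all but Nr1h5). The other 272 had a median of -0.89 after switch-off and reached up to 2.52. Among those just outside stood the deoxycytidylate deaminase gene Dctd at -4.06, the stanniocalcin gene Stc2 at -3.91, Arhgdig at -3.89 and Rragb, which encodes a GTPase that senses amino acids for mTORC1, at -3.71. The step from Ccnb1ip1 at -4.13 to Dctd at -4.06 is small beside the standard error of Ccnb1ip1 (0.33).

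**Figure D3:**
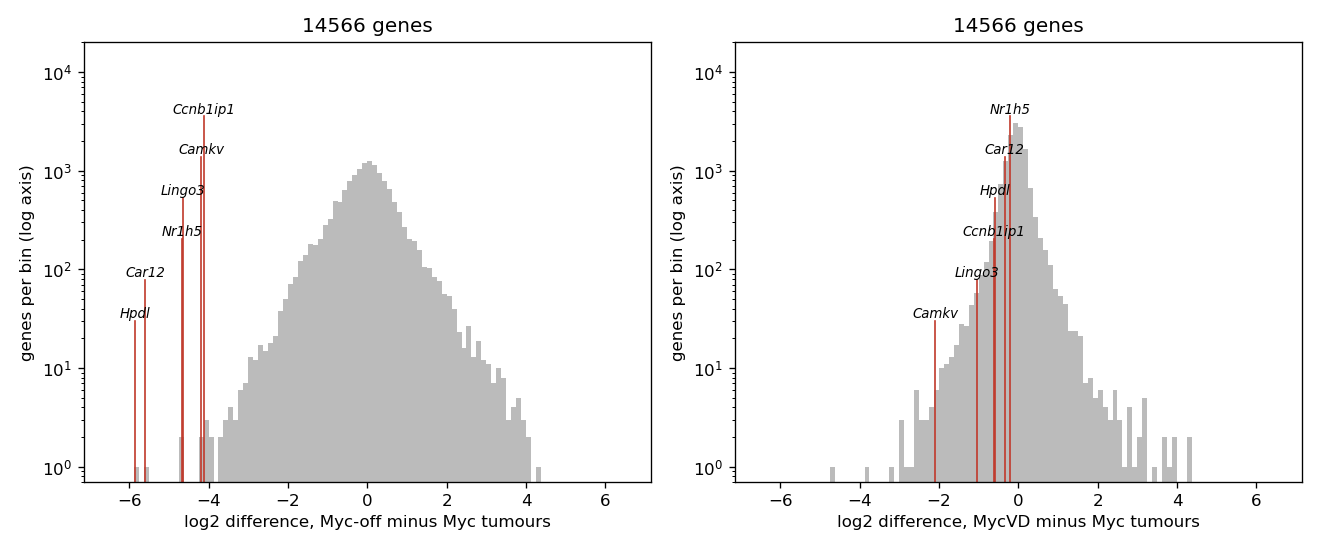
Grey bars count the 14566 genes per bin of log2 difference on a log axis, for Myc-off minus Myc tumours (left) and MycVD minus Myc tumours (right), and red lines mark the 6 genes. On the left the 6 lie at the lower end, by which they were picked, and on the right they lie between -2.10 and -0.21.

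MycVD tumours show how the 6 genes stand when the transgene is on but carries the V394D substitution. The MycVD libraries were not used to pick the genes, although the Myc tumours they are compared with were. A choice for high values in Myc tumours can by itself make MycVD tumours look lower. The p-values of this comparison are therefore not independent of the choice. With limma, 4 of the 6 were called lower in MycVD than in Myc tumours and 0 higher, where 9.17% of all genes were called lower and 6.56% higher. The 272 other genes under 0.5 eRPKM in control liver and at least 5 in Myc tumours had a median difference of -0.39. The median of all genes was -0.04. Lower levels in MycVD tumours were thus not particular to the 6, and Car12 (-0.34) and Nr1h5 (-0.21) fell less than the median of those 272. In 2 of the 6, Camkv and Lingo3, every MycVD animal lay under every Myc animal, as for 1.32% of all genes. Both kept the call under all 30 alternatives, and Car12 and Hpdl did not.

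Camkv differed most. MycVD libraries had a lowest, median and highest level of 0.0753, 3.53 and 9.73 eRPKM, against 9.55, 13.9 and 21.0 in Myc tumours. All 10 MycVD animals averaged under the lowest Myc animal (11.7 eRPKM). The animal means were 4.05 ± 2.80 (SD, n = 10) and 14.95 ± 2.94 (n = 7), a log2 difference of -2.10 ± 0.35 (SE, limma adjusted p = 9.6e-05). Camkv was also the most uneven of the 6 in MycVD tumours, with a coefficient of variation of 69.1%. ID133764 had 2 reads (0.0753 eRPKM), inside the control range, ID134668 kept 7.66% of the Myc tumour mean and ID133761 kept 65.1%. The only MycVD animal with 2 tumours, ID133765, had 3.24 eRPKM in 1 and 0.748 in the other.

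Lingo3 was lower too, with MycVD libraries at 2.61, 9.24 and 12.1 eRPKM against 12.01, 16.3 and 23.5 in Myc tumours. The 10 MycVD animals again all lay under the lowest Myc animal (14.9 eRPKM). Animal means were 8.81 ± 2.84 and 17.9 ± 2.96 eRPKM, a log2 difference of -1.05 ± 0.19 (limma adjusted p = 2.1e-04). The lowest animal was ID133764, at 14.5% of the Myc tumour mean, the same animal that had 2 reads of Camkv.

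Hpdl and Car12 were lower by less. Hpdl stood at 12.4, 27.5 and 34.6 eRPKM in MycVD libraries, with 7 of 10 animals under every Myc animal and the lowest, ID133762, at 32.2% of the Myc tumour mean. Its log2 difference was -0.58 ± 0.17 (limma adjusted p = 0.024). Car12 stood at 20.2, 32.6 and 37.6 eRPKM, also with 7 of 10 animals under every Myc animal, and its log2 difference was -0.34 ± 0.12 (adjusted p = 0.040). MycVD libraries were shallower than Myc libraries, and with recovered depth as a term Hpdl (-0.40, adjusted p = 0.24) and Car12 (-0.26, adjusted p = 0.26) no longer passed, while Camkv (-1.98, adjusted p = 2.6e-03) and Lingo3 (-1.01, adjusted p = 3.8e-03) did. Without Myc ID126947 Hpdl had an adjusted p of 0.052, and leaving out 1 animal at a time ended the call of Car12 in 10 of 20 cases, namely Myc animals ID125320, ID126947, ID126948, ID128285, ID128992 and ID130395 and MycVD animals ID133762, ID133763, ID133764 and ID133765, with adjusted p up to 0.090.

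Ccnb1ip1 and Nr1h5 did not pass. Ccnb1ip1 had 18.5, 37.2 and 58.4 eRPKM in MycVD libraries, and its log2 difference of -0.62 ± 0.23 had a limma adjusted p of 0.068. That lay close to the threshold, and it passed without Myc-off ID150584 (adjusted p = 0.043) or ID151964 (0.039), whose values enter the shared estimate of spread. Ccnb1ip1 also passed in a limma fit of the Myc and MycVD groups alone (adjusted p = 0.016) and with a pseudocount of 1 (0.027). Quantile normalisation (0.048) and each tumour as its own sample (0.049) gave a call too. It did not pass in 18 of 20 leave-one-out fits and 6 of 10 other alternatives, among them the depth term (0.31). Nr1h5 had 44.3, 56.4 and 70.3 eRPKM against 50.8, 58.9 and 74.3, and its difference of -0.21 ± 0.13 had an adjusted p of 0.31. One MycVD animal, ID133764, lay above every Myc animal for Nr1h5, at 113% of the Myc tumour mean. Without the 8 libraries of low Gapdh the same 4 genes were called, with Camkv at -2.26, Lingo3 at -1.24, Hpdl at -0.66 and Car12 at -0.42, and the genes called in all went from 2290 to 3968.

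**Figure D4:**
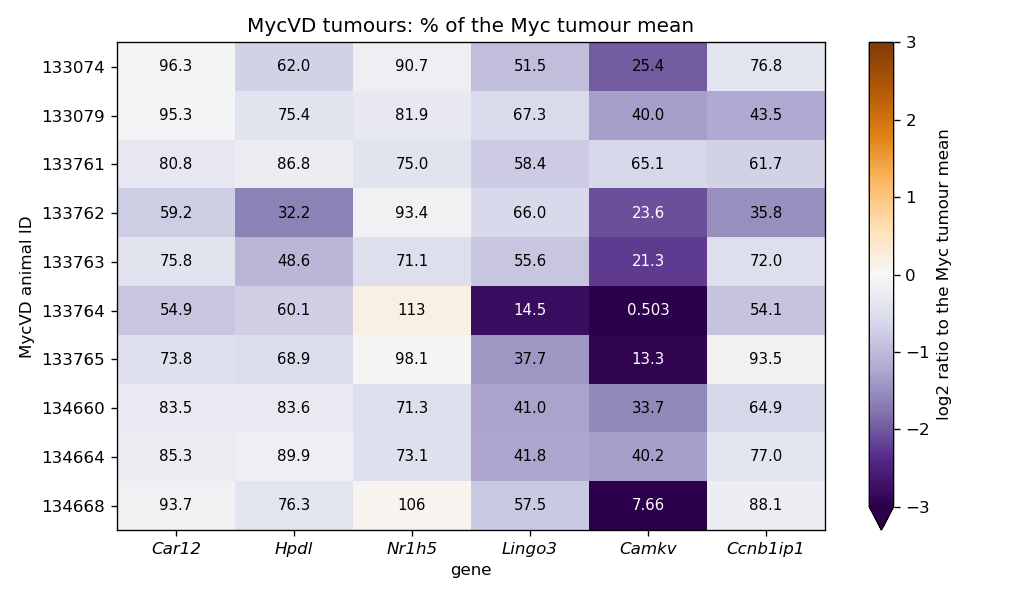
Rows are the 10 MycVD animals, columns the 6 genes, the printed values are percentages of the Myc tumour mean in eRPKM, and colour gives the log2 ratio. Camkv runs from 0.503% to 65.1% and Lingo3 from 14.5% to 67.3%, while Nr1h5 stays between 71.1% and 113%.

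Relative to control liver all 6 genes were higher in MycVD tumours, where 49.1% of all genes were called higher. Ccnb1ip1 stood at 5.73 ± 0.21 (SE), Car12 at 5.70 ± 0.10, Hpdl at 4.93 ± 0.15, Lingo3 at 4.06 ± 0.16, Nr1h5 at 3.89 ± 0.12 and Camkv at 2.72 ± 0.31. Without the 8 libraries of low Gapdh these ran from 2.57 (Camkv) to 5.73 (Ccnb1ip1). The control livers are those by which the genes were picked, so these differences are a description and no p-value is given. The shares of all genes, which were not picked for low control levels, give the background only. For 5 of the 6 every MycVD animal lay above every control, as for 25.8% of all genes, and for Camkv 9 of 10 did.

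The 10 MycVD animals allow a look at whether the 6 genes vary together there. Only ID133765 gave more than 1 tumour, with Car12 at 37.5 and 20.2 eRPKM, so animal and tumour levels cannot be told apart. Over the 10 animals, 7 of 15 pairs had a positive Pearson r, with a median of -0.01. Only Nr1h5 and Camkv passed among 27 relations tested, with r = -0.83 (permutation test, adjusted p = 0.032), but Spearman's rho was -0.66 (permutation test, adjusted p = 0.79) and r was -0.61 without the 2 animals farthest from the median of Nr1h5. Lingo3 and Camkv had r = 0.73 (permutation test, adjusted p = 0.29; rho = 0.42, adjusted p = 0.81), which turned to -0.14 without the 2 animals farthest from the median of Lingo3. The Myc row of the table had r between -0.24 and 0.50 with the 6 genes, with no adjusted p under 0.46 (permutation test). Recovered depth had its highest r with Hpdl, at 0.72 (permutation test, adjusted p = 0.22; rho = 0.58, adjusted p = 0.79).

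Across all 31 animals the 6 genes follow one another, since the tumour groups are high for all of them. Pearson r in log2 units ran from 0.83 (Nr1h5 with Camkv) to 0.99 (Car12 with Hpdl), and Camkv had the lowest values. As the points share libraries and groups, these values describe the group pattern. The 3 genes most like each of the 6 by this measure were as follows. Taf4b, which encodes a subunit of the general factor TFIID, was nearest to both Car12 (r = 0.99) and Hpdl (r = 0.99), with 2.08 eRPKM in control liver, 21.9 in Myc, 2.39 in Myc-off and 19.3 in MycVD tumours. Arhgdig and Ccdc116 followed for Car12, and Fam185a and Mettl16 for Hpdl. Nr1h5 was nearest to Dph5 and Qtrtd1, which act in the modification of elongation factor and tRNA, and to the ribosome assembly gene Rrs1 (all r = 0.98), genes that are expressed in control liver.

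Lingo3 was nearest to Wdr31, Arhgdig and Rcor2 (r = 0.98 each). Rcor2, a corepressor gene, stood at -0.81 in MycVD relative to Myc tumours. Camkv was nearest to B930041F14Rik (r = 0.96), to the fatty acid receptor gene Ffar4 (r = 0.95) and to Sbno1 (r = 0.94). In MycVD relative to Myc tumours these 3 stood at -1.44, -1.63 and -0.19. The MycVD and Myc values entered the measure of likeness, so these differences and that of Rcor2 describe the choice and are no test. Ccnb1ip1 was nearest to the arginine transporter gene Slc7a1 (r = 0.99), at 0.802 eRPKM in control liver, 38.2 in Myc, 3.96 in Myc-off and 27.9 in MycVD tumours, and then to Alkbh8 and Mapre2.

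The genes next to the 6 on the chromosome were also examined. Of 11 neighbours tested, 5 fell after switch-off by limma, where 28.2% of all genes did. Traip, a ubiquitin ligase gene of DNA replication next to Camkv, fell by 2.54 ± 0.29 (adjusted p = 1.9e-08). Sycp1, a gene of the synaptonemal complex next to Nr1h5, fell by 1.83 ± 0.23, the DNA repair gene Mutyh next to Hpdl by 1.73 ± 0.22, the Sm-like gene Lsm7 next to Lingo3 by 1.05 ± 0.15 and the DNA repair gene Parp2 next to Ccnb1ip1 by 0.80 ± 0.09. Short of the threshold stood Zswim5 at -0.52, Ttc5 at -0.14, Sike1 at -0.07 and the neighbours of Car12, Usp3 at 0.15 and Aph1b at 0.42. Oaz1, a regulator gene of polyamine synthesis on the other side of Lingo3, stood at 0.23 ± 0.08 (adjusted p = 0.015). Actl11, next to Camkv, was too low to be tested.

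Relatives and pathway partners of the 6 genes were counted by list. Counts below are by limma over all genes, and the median of all genes was 0.27 between Myc tumours and control liver (0.05 under median-ratio scaling) and -0.01 between Myc-off and Myc tumours. In the second comparison the list medians were 0.29 for other carbonic anhydrases, 0.04 for pH and bicarbonate transporters, -0.58 for coenzyme Q synthesis, 0.33 for NR1H and RXR receptors, -0.73 for the LINGO and Nogo receptor list, -0.20 for calmodulin and CaM kinases and -0.21 for meiotic genes.

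Among 11 other carbonic anhydrase genes tested, 4 were higher and 5 lower in Myc tumours than in control liver (2 and 6 under quantile normalisation), and after switch-off 3 rose and 0 fell. Car5a, the mitochondrial form of liver, was at 45.9 ± 9.84 eRPKM in control liver and 1.77 in Myc tumours, a difference of -4.51 ± 0.21, and rose by 2.86 ± 0.30 after switch-off. Car3, a cytosolic form, did likewise (-3.58 ± 0.40, then 1.93 ± 0.57). Car12 therefore went in the opposite direction from both. Of 12 pH and bicarbonate transporter genes 8 were higher in Myc tumours and 3 lower, and after switch-off 4 rose and 2 fell. The bicarbonate transporter gene Slc4a7 fell by 1.26 ± 0.13, and was also lower in MycVD tumours (-0.51 ± 0.09, adjusted p = 2.3e-04), while Slc4a4, another bicarbonate transporter gene, rose by 0.91 ± 0.30.

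Tyrosine breakdown, the pathway of the Hpdl relative Hpd, went in the opposite direction from Hpdl. All 9 genes tested were lower in Myc tumours (7 under quantile normalisation), with a median of -1.22, and after switch-off 7 rose (4 with a depth term) and 0 fell, the median being 0.81. Tat, the first enzyme of the pathway, stood at -6.07 ± 0.62 and then rose by 3.47 ± 0.89. Coenzyme Q synthesis had a mixed record, with 8 of 13 genes higher and 4 lower in Myc tumours (5 and 5 under median-ratio scaling), and after switch-off 7 fell and 1 rose (3 rose under median-ratio scaling). Pdss1, which makes the side chain of coenzyme Q, was higher by 2.73 ± 0.09 and then fell by 1.93 ± 0.13. Coq4 fell by 1.24 ± 0.10.

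The receptors related to Nr1h5 were mostly lower where Nr1h5 was high. Of 7 NR1H and RXR receptor genes, counting the corepressor gene Nr0b2, 6 were lower and 1 higher in Myc tumours, and after switch-off 3 rose and 1 fell. The bile acid receptor gene Nr1h4 was at 56.6 eRPKM in control liver and 19.1 in Myc tumours, and rose by 0.91 ± 0.12 after switch-off (adjusted p = 2.3e-07). Rxrb fell by 0.77 ± 0.12. Genes of sterol synthesis, the pathway of lanosterol, were lower in Myc tumours in 16 of 18 cases (14 under quantile normalisation), with a median of -0.95, and 14 rose after switch-off (16 with a depth term), with a median of 0.91. In MycVD tumours 11 of the 18 were higher than in Myc tumours (9 with a depth term), among them Mvd at 1.17 ± 0.27 and Tm7sf2 at 0.81 ± 0.17.

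After switch-off the lists tied to neurons had calls in both directions, and the meiotic list had falls only. Falls were 4 of 7 genes in the LINGO and Nogo list and 6 of 13 in the meiotic list, where 28.2% of all genes fell. The lists are small and were not tested as sets. Of 7 genes of the LINGO family and the Nogo receptor complex, 4 fell and 1 rose after switch-off (3 fell under median-ratio scaling). Rtn4r, the Nogo receptor gene, was listed at 0 in all control animals, at 5.46 eRPKM in Myc tumours, and fell by 1.98 ± 0.43, and the TNF receptor family gene Tnfrsf19 fell by 2.24 ± 0.23. Of 13 calmodulin and CaM kinase genes 4 fell and 2 rose (6 and 1 under quantile normalisation), a share of falls near the 28.2% of all genes. Pnck, which encodes a CaM kinase of the type I group, fell by 1.47 ± 0.40 and the CaM kinase II inhibitor gene Camk2n1 rose by 1.18 ± 0.12. Camk2a was lower in MycVD than in Myc tumours (-0.85 ± 0.15), at 0.319 against 0.967 eRPKM. Of 25 meiotic genes 13 could be tested, 8 higher and 2 lower in Myc tumours (5 and 4 under quantile normalisation), and 6 fell and 0 rose after switch-off. Sycp1 was among those that fell, and Mei4 was lower in MycVD than in Myc tumours (-1.01 ± 0.18), 1 of 2 called there (4 without the libraries of low Gapdh).

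Known Myc-activated genes were mostly higher in Myc tumours and fell after switch-off. Of 31 tested, 25 were higher and 1 lower in Myc tumours, with a median of 1.30, and after switch-off 27 fell and 0 rose. The median there was -1.02, with Rrp9 (-2.33 ± 0.18) and Polr1b (-2.13 ± 0.12) at the lower end. In MycVD tumours 2 were higher and 1 lower than in Myc tumours (0 and 0 with a depth term, 2 and 5 under quantile normalisation, 8 and 1 without the libraries of low Gapdh), with a median of 0.08. Prps2 was the 1 lower, at -0.55 ± 0.16.

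**Figure D5:**
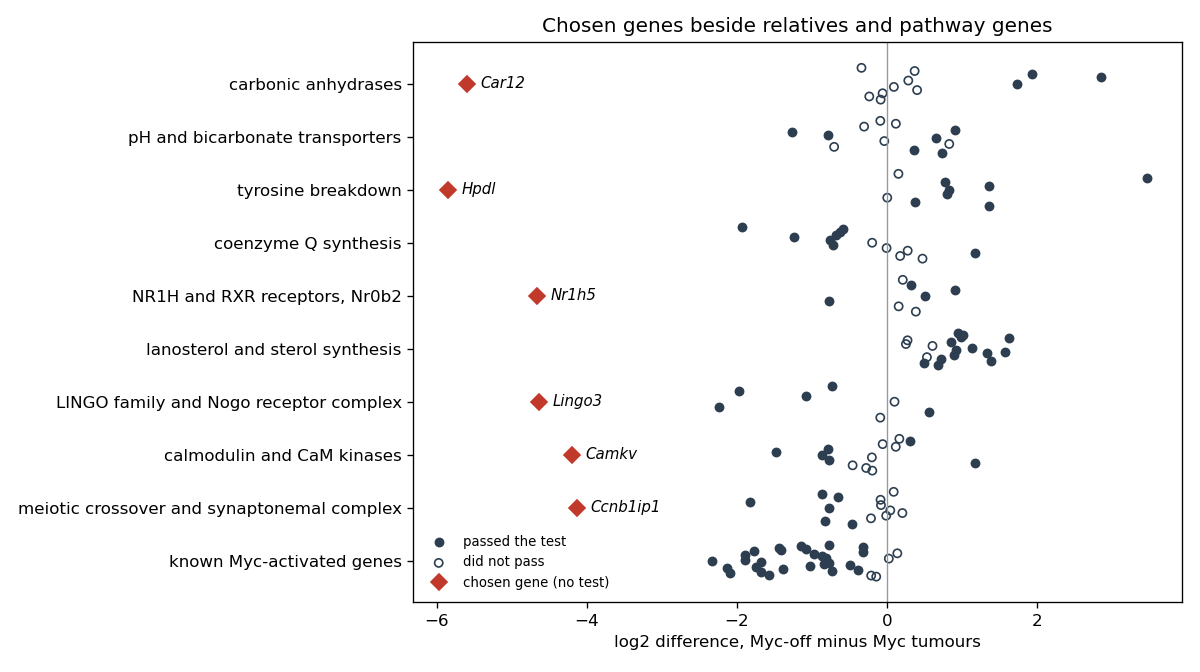
Each dot is 1 gene of a list, placed by its log2 difference between Myc-off and Myc tumours, filled where limma's adjusted p was under 0.05, and red diamonds are the 6 genes. Tyrosine breakdown and sterol synthesis lie mostly right of 0 with medians of 0.81 and 0.91 and known Myc-activated genes lie mostly left of it with a median of -1.02. The diamonds are the lowest values of all genes because they were picked so.

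Markers of cycling cells were high where the 6 genes were high, and hepatocyte markers went the other way. The summed level of 8 cycling cell markers was 4.87 to 25.2 eRPKM in control animals, 432 to 517 in Myc, 184 to 242 in Myc-off and 416 to 519 in MycVD animals. After switch-off 7 of the 8 fell, and 0 of 8 differed between MycVD and Myc tumours by limma. Hepatocyte markers (8 genes) summed to 894 to 1566 eRPKM in control, 511 to 779 in Myc, 1055 to 1078 in Myc-off and 672 to 957 in MycVD animals, with 7 of 8 higher after switch-off and 4 of 8 higher in MycVD than in Myc tumours (2 with a depth term). Bile duct markers (7 genes) summed to 18.2 to 42.6 eRPKM in Myc and 50.8 to 147 in Myc-off animals, with 6 of 6 tested higher. Between Myc tumours and control liver 7 of 7 neutrophil markers (median 3.20) and 7 of 7 erythroid markers (median 1.11) were higher, and 5 of 8 endothelial markers were lower and 1 higher. Stellate markers had 4 of 8 higher and 2 lower, macrophage markers 3 of 7 higher and 2 lower, and T, B and NK cell markers 3 of 6 higher and 1 lower. Of the markers tested after switch-off, 2 of 8 endothelial and 2 of 6 T, B and NK cell genes were higher, and 0 of 8 stellate, 0 of 7 macrophage, 0 of 7 neutrophil, 0 of 7 erythroid and 0 of 1 pancreatic acinar genes passed. Between MycVD and Myc tumours 2 of 8 endothelial and 3 of 7 macrophage genes were lower and 1 of 6 bile duct genes was higher. The part of these cells in the levels of the 6 genes was not tested. Among 6 neuronal markers only 2 passed the filter on low values, and the sum of all 6 was 9.47 to 17.9 eRPKM in control, 5.51 to 7.38 in Myc, 5.53 to 10.3 in Myc-off and 0.714 to 8.89 in MycVD animals. Of the 2 tested, Map2 was lower in MycVD than in Myc tumours (-1.27 ± 0.30, limma adjusted p = 3.8e-03) and the other did not pass. The median of the 2 was -0.51, and Map2 did not pass with a depth term. Its part was not tested either.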

How the data were processed

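Total RNA was depleted of ribosomal RNA and made into libraries with a kit that does not mark strand, per the labels' protocols, so antisense reads are not separated. The authors deposited RPKM over exons (eRPKM). Tools were TopHat and TopHat2 2.0.8 on build mm9, per the submitters' processing notes, with read counter and RPKM denominator not given in the sources used here. Whole reads were recovered for 19458 genes from the steps of the RPKM values (100.0% whole within 0.001, 3.20 to 12.55 M per library). Eef1a1 had 1352 to 1689 reads per kb at every depth, so abundant genes may be capped. The 6 genes reached at most 757, and what a cap did to them was not tested.

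IDs in the titles were taken as animals, an assumption. Values of log2(eRPKM + 0.5) were averaged per ID, and genes that reached 1 eRPKM in 3 or more IDs entered limma 3.58.1 under R 4.3.3 (trend, two-sided, 4 groups in 1 fit, Benjamini-Hochberg at 0.05), after tests on simulated data. P-values measure the spread between these IDs. Correlations used permutation tests with 100000 resamples. The 6 genes and all lists were chosen with earlier results of these data known. Named genes were the 6, per list and comparison the 2 largest differences, the 3 most alike, the nearest neighbours and the 5 next largest decreases. Some named genes are not reported here.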

Additional observations from a re-analysis of the deposited data

Results flagged for a closer look

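Lingo3 in MycVD ID133764 was at 2.61 eRPKM, apart from the other 9 MycVD animals in log2(eRPKM + 0.5). On that scale its gap to the nearest of them was 0.589 of the range of the group. That is above the critical value of 0.466 for 10 samples. The ratio is for the log2 scale and not for eRPKM. It was 1 of 14 groups examined in this way, and chance alone marks about 1 in 20. The same animal had the lowest Camkv and the highest Nr1h5 of the MycVD group. Without it Lingo3 stood at -0.88 and Camkv at -1.80 relative to Myc tumours, and both still passed the limma threshold.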

How the results depend on the processing

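The comparison of MycVD with Myc tumours called 2290 genes, and 4 of the 6 described here. With recovered depth as a term it called 983 genes and 2 of the 6 (Camkv and Lingo3), and with a pseudocount of 0.1 again 2. Without the 8 libraries of low Gapdh, a choice made after seeing the data, it called 3968 genes. In that setting the list counts after switch-off were 5 higher and 3 lower for pH and bicarbonate transporters, 2 and 7 for coenzyme Q synthesis, 8 of 8 hepatocyte, 5 of 6 bile duct and 1 of 8 endothelial markers higher, and as given above for the other lists. Leaving out 1 animal at a time gave 1497 to 2604 genes (fewest without Myc animal ID130395) and 2 to 5 of the 6 (fewest without Myc animal ID126947). The cause was not tested. The share of calls that were higher depended on scaling, with 955 higher and 1335 lower as deposited, 1137 and 1007 under median-ratio scaling and 636 and 347 with the depth term. Between Myc tumours and control liver 7278 were higher and 4362 lower, or 5985 and 5579 under median-ratio scaling. No log2 difference of the 6 genes between MycVD and Myc tumours or control liver, or between Myc-off and Myc tumours, changed sign under any alternative run. Camkv and Lingo3 passed under every one of the 30, with Camkv at -2.38 to -1.80 and Lingo3 at -1.24 to -0.88. Car12 lost its call in 15 of them, Hpdl in 3, and Ccnb1ip1 gained one in 6. Depth limits the low end: a library with 0 reads allows up to 3. No paired analysis was possible because the groups share no animal IDs.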
